A study of Homo sapiens with 8 samples.

Results

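This account describes the parts of the genome where the deposited SON concentration stayed at its lowest value in 786-O, an established human line of clear cell renal carcinoma, whether or not HIF-2α was inhibited. SON TSA-seq had been run on cells given the HIF-2α inhibitor PT2399 at 2 µM for 3 h, and on cells given DMSO vehicle for the same time, with 2 SON pulldowns and 2 inputs each and 8 libraries in all. Groups follow the sample titles, since the other fields of 4 libraries go against their titles, and the direction of any change rests on reading the value columns named treatment and control as PT2399 and DMSO. The cells were attached and grown under atmospheric oxygen, both groups come from this 1 cell line, and the labels do not say whether replicates were separate cultures.

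Windows of 100 kb on chromosomes 1 to 22 were taken where the log2 SON concentration was below 0 with PT2399 and with DMSO. There were 157653 such windows of 259029 on the autosomes (60.9%), and of 278316 in the series. The windows come in 9 sets shifted by 10 kb, so that neighbouring sets overlap and are not replicates of each other. The share was between 60.7% and 61.0% in every set, with 17481 to 17552 of 28781 windows a set. Overlapping windows were joined into 1067 domains, which cover 1890.16 Mb, or 65.6% of the 2879.86 Mb that the windows span. Windows and domains chosen this way are called floor windows and floor domains. Coordinates are of hg19, the build named in the submitters' processing notes, and no sequence of that build was used here.

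Nuclear speckles are nuclear bodies rich in splicing factors, with SON as a core protein. In TSA-seq a peroxidase bound through the antibody spreads a biotin label outward from SON, so the amount of labelled DNA falls as a locus lies farther from a speckle. Chromatin far from speckles is known from other cell types to be gene-poor, late replicating and often near the nuclear lamina, while gene-dense chromatin tends to lie near speckles.

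Every floor window held the same pair of values. The log2 concentration was -0.11 with PT2399 and -0.07 with DMSO in each of the 157653 windows, which is 1 combination of values over the whole set. In the authors' deposited tables the change of these windows, turned here to PT2399 minus DMSO, was -0.04 with a p of 0.978 and an FDR of 1. At an FDR of at most 0.01 in those tables, 0 floor windows were called, beside 0.653% of all autosomal windows called lower and 0.147% called higher with PT2399. The rule used these same values, so nothing is read from that count.

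The floor was the lowest value of each treatment. The values just outside the rule were 0.46 with PT2399, at 123 windows, and 0.49 with DMSO, at 125 windows. On the linear scale the 2 lowest steps above the floor measured 0.898 and 0.956 with PT2399, and they summed to 1.85, which is also double the linear floor. With DMSO the steps measured 0.904 and 1.0, and their sum of 1.91 again matched double the floor. Values below 2 with PT2399 matched whole multiples of its steps to within 0.01, and so did those with DMSO, as a mean of 2 libraries would give. At such a mean, a window at the floor has both libraries at their lowest step. Which library has which step cannot be told apart. The floor is not read as an absence of labelled DNA or as a distance from a speckle. Inside 100 kb windows at the floor, 1 island of 50 kb windows reached 6.45 with PT2399 and 5.68 with DMSO.

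Few windows lay close to the floor without being at it. Only 1353 windows with PT2399 (0.522%) and 1346 with DMSO (0.520%) had a value from 0 up to 2. Of these, 1315 with PT2399 and 1317 with DMSO matched 1 library above its lowest step and the other still at it. Off the floor the median was 8.31 with PT2399 and 8.44 with DMSO. From 2 up to 8 there were 41445 windows with PT2399 (43.5% of those off the floor) and 38745 with DMSO (41.1%), and at 8 or above 52483 with PT2399 (55.1%) and 54284 with DMSO (57.5%).

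Most floor windows of one treatment were also at the floor in the other. With PT2399 there were 163748 windows at the floor, of which 96.3% were at it with DMSO, beside 63.6% of all autosomal windows. With DMSO there were 164654, of which 95.7% were at it with PT2399, beside 63.2% of all autosomal windows. The remainder were 6095 windows at the floor with PT2399 alone (2.35% of all) and 7001 with DMSO alone (2.70%). In the first kind the DMSO value had a median of 4.49 (quartiles 3.24 and 5.44), and in the second the PT2399 value had a median of 4.36 (quartiles 3.10 and 5.35), so that these windows sat below the bulk of the signal. The tables used hold 1 value per treatment, so these counts have no replicate spread and were not tested.

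Long domains held most of the length although short ones were the most frequent. The median domain was 0.30 Mb long, with quartiles of 0.15 and 1.33 Mb. There were 391 domains under 0.2 Mb, which together covered 51.72 Mb, and 112 domains were a single window. The 320 domains of at least 1 Mb covered 89.1% of the floor length, the 106 of at least 5 Mb covered 63.5%, and the 46 of at least 10 Mb covered 41.2%. A set of 65 domains, down to a length of 7.54 Mb, sufficed for 50% of it. Stretches between domains were 1030 in number and 989.7 Mb in all, with a median of 0.19 Mb and a longest one of 26.64 Mb, and 48 of them reached 5 Mb.

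**Figure D1:**
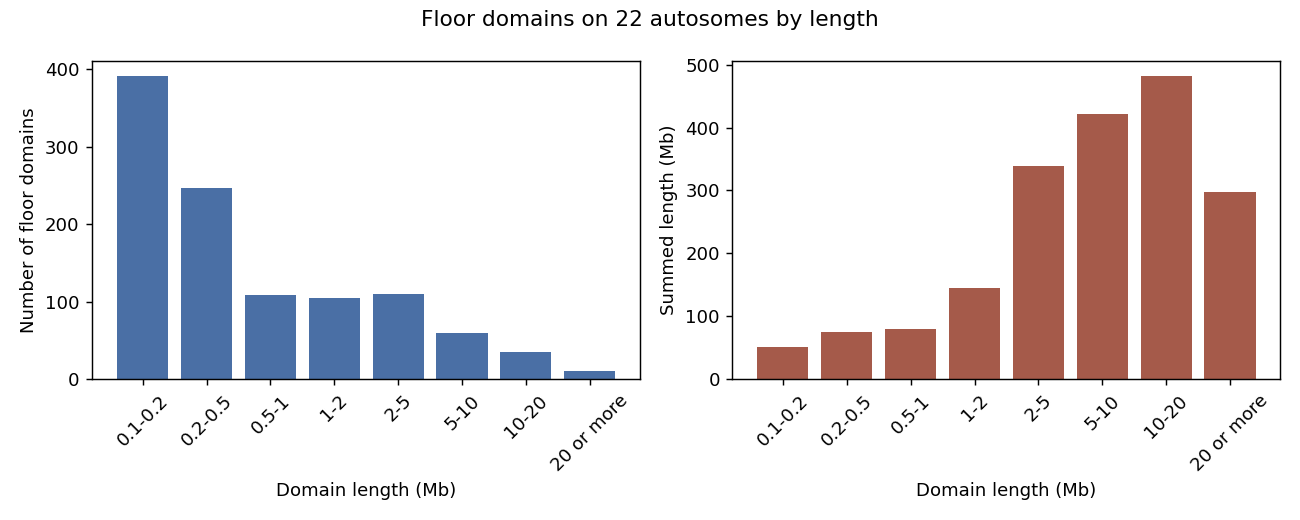
Number of floor domains (left) and their summed length in Mb (right) by domain length in Mb, over the 22 autosomes. The 391 domains under 0.2 Mb are the most numerous bar and hold 51.72 Mb, while the 11 domains of 20 Mb or more hold 297.28 Mb.

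Windows off the floor were few inside domains, but they split some long domains into several pieces, such as the 15.28 Mb at chr5:39450001-54730000 into 5, the longest of 6.17 Mb. Joining overlapping windows can bridge a window that is off the floor, so the stretches covered by no such window were taken as the core. The core covered 1609.92 Mb, 85.2% of the domain length, in 1059 pieces. Windows off the floor that lay wholly inside a domain numbered 3988, or 3.93% of all off-floor windows. Of these, 1636 were at the floor with PT2399 alone, 1996 with DMSO alone, and only 356 were off it in both. The highest value inside a domain was 6.68 with PT2399 and 6.35 with DMSO.

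Smaller windows from the same libraries gave a finer view of the core. Of 282042 windows of 50 kb that fit within it, 277473 (98.4%) were at the floor in both treatments. A share near the whole is set by the choice, since the 100 kb windows over the core come from the same libraries and are all at the floor. The 4569 exceptions were mostly off in 1 treatment: 2348 with PT2399 and 1875 with DMSO, against 346 in both. At least 2 in both treatments was reached by 197 of them, in 105 islands. The island with the highest PT2399 value, at chr11:85150001-85240000, peaked at 6.45 with PT2399 and at 5.68 with DMSO. The next, at chr1:91810001-91900000, peaked at 6.04 with PT2399 and 5.39 with DMSO. At an FDR of at most 0.01 in the authors' deposited tables, 0 of the 4569 were called, beside 0.241% of all autosomal 50 kb windows. That share takes in the floor windows, 305644 of 518328, while the 4569 are all off the floor. They also lie where 100 kb windows were chosen at the floor, so nothing is read from the count.

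The longest domain lay on chromosome 13, at chr13:52960001-95770000, and measured 42.81 Mb. It held 3843 floor windows and only 2 windows off the floor, of which the highest was 1.93 with PT2399, while DMSO stood at the floor in both. One piece of 33.69 Mb had no window off the floor at all, the longest such core piece of any autosome. As background from general knowledge of the map, this stretch is a well-known gene-poor part of the long arm. Among its genes are the protocadherins PCDH9, PCDH17 and PCDH20, which encode neural cell adhesion proteins, the SLITRK1, SLITRK5 and SLITRK6 genes for neuronal transmembrane proteins, and the glypican genes GPC5 and GPC6. No gene annotation of hg19 was used, so gene names here and below place a domain on the known map and carry no value of their own.

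Chromosome 4 held the next longest domains. At chr4:89060001-129210000, 40.15 Mb, 3574 floor windows were broken by 31 windows off the floor (0.860%), with highest values of 4.64 with PT2399 and 6.35 with DMSO. Its core lay in 12 pieces, the longest of 10.06 Mb, in contrast to the chromosome 13 domain of similar length. ANK2, which encodes an ankyrin, lies here. At chr4:154070001-183840000, 29.77 Mb, 23 windows were off the floor, and the longest unbroken piece was 15.17 Mb. It holds the fibrinogen gene cluster, expressed in liver, and VEGFC, a lymphatic growth factor.

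The next domains in length are given in the same way. On chromosome 8, chr8:68370001-94910000 measured 26.54 Mb, with 23 windows off the floor that reached 5.78 with PT2399 and 4.52 with DMSO. On chromosome 3, chr3:73030001-98580000 measured 25.55 Mb, with 5 windows off the floor and an unbroken piece of 25.30 Mb. It includes the centromere, the axon guidance receptor genes ROBO1 and ROBO2, the adhesion gene CADM2 and, at its far end, a cluster of olfactory receptor genes. On chromosome 2, chr2:136550001-159880000 measured 23.33 Mb, with 13 windows off the floor, and holds LRP1B, a very large gene for a lipoprotein receptor relative, and ZEB2, a transcription factor of neural crest. On chromosome 6, chr6:112130001-134330000 measured 22.20 Mb, with 17 windows off the floor and an unbroken piece of 20.08 Mb. LAMA2, a laminin chain of muscle basement membrane, and GJA1, a gap junction protein, are among its genes.

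**Figure D2:**
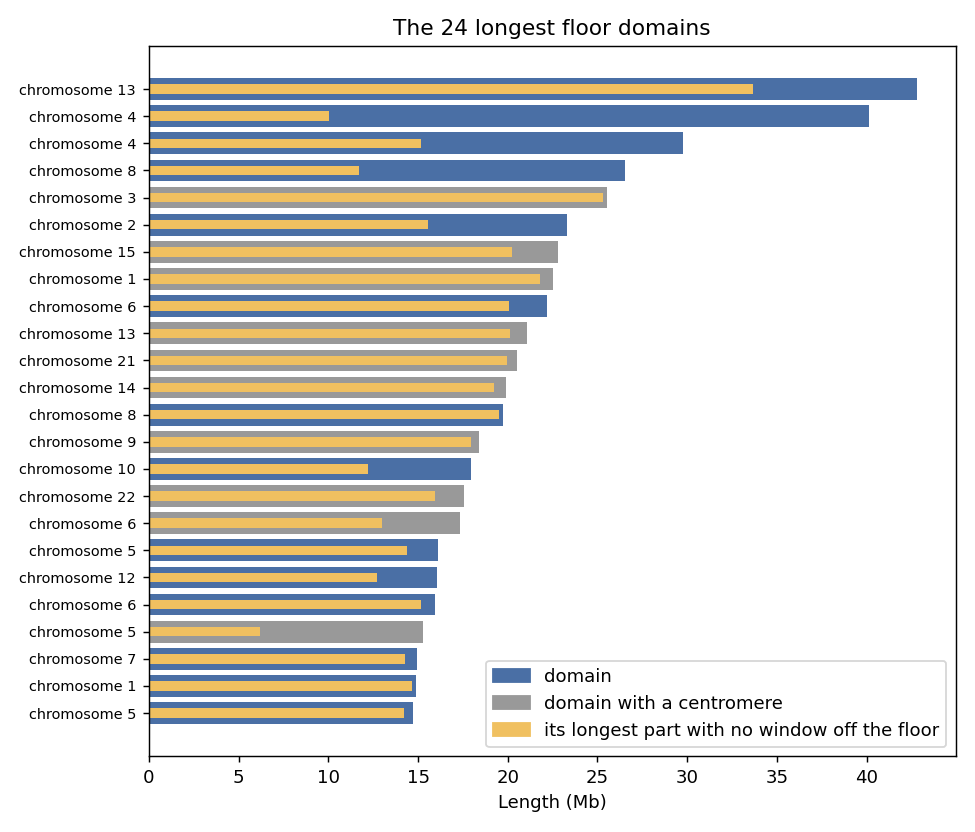
Length in Mb of the 24 longest floor domains, named by chromosome; grey bars hold a centromere, and the narrow inner bar is the longest piece with no window off the floor. The chromosome 13 domain of 42.81 Mb has an unbroken piece of 33.69 Mb, while the chromosome 4 domain of 40.15 Mb has one of 10.06 Mb.

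Some of the longest floor domains lay where hg19 has gaps or where reads cannot be placed. The windows tile each chromosome from its first base and carry the same floor values over unassembled sequence as over mapped sequence, so a gap and mapped chromatin at the floor cannot be told apart in these tables. Of the 10 longest domains, 4 hold a centromere. At chr15:1-22780000 (22.78 Mb) and chr13:1-21080000 (21.08 Mb) the domain began at the first window, on a short arm that is not assembled in hg19. Both domains hold the centromere and run past it, with 18 windows off the floor on chromosome 15 and 8 on chromosome 13. At chr1:121120001-143650000 (22.53 Mb) the domain covers the centromere and the large heterochromatin block next to it, with 2 windows off the floor. The chromosome 3 domain above runs through its centromere.

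Floor domains that hold a centromere were marked by a point inside each centromere gap, taken in whole Mb from general knowledge of hg19. Of these points 22 of 22 lay inside a floor domain. Windows over a gap carry the floor values, so that count follows from the choice of points and nothing is read from it. These 22 domains measured from 3.54 Mb on chromosome 17 to 25.55 Mb on chromosome 3, with a median of 11.61 Mb, and covered 288.39 Mb, or 15.3% of the floor length. Without them, 61.8% of the remaining span was in floor domains, and 87 of the 106 domains of at least 5 Mb remained. Both values still count chr21:1-9820000, which begins on an unassembled short arm. With the domains at the first window left out as well, 86 domains of at least 5 Mb remained. Domains that began at the first window were found on chromosomes 13, 14, 15, 21 and 22, whose short arms are unassembled, and also on chromosome 2, for 1.57 Mb, and chromosome 3, for 4.45 Mb. Only on chromosome 4 did a domain reach the last window, over 3.51 Mb.

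Chromosomes differed widely in how much of them was at the floor. Chromosome 4 had the highest share, 87.3% of its windows, followed by chromosome 13 with 84.4% and chromosome 18 with 77.9%. Chromosome 19 had the lowest, 7.93%, then chromosome 17 with 18.9% and chromosome 22 with 34.1%. On 17 of the 22 autosomes at least 50% of the windows were floor windows. Chromosome 4 made up 6.64% of all windows and 9.51% of the floor windows, while chromosome 19 made up 2.05% of all windows and 0.267% of the floor windows. Since neighbouring windows depend on each other, the shares are given as a description.

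Leaving out the domains with a centromere moved the share of some chromosomes more than that of others. Chromosome 22 had 35.4% of its length in floor domains with them and 1.72% without, since 17.55 Mb of its 18.13 Mb lay in the domain that begins at its first window. Chromosome 19 had 9.65% with and 3.35% without, and chromosome 21 had 73.4% with and 53.5% without. The lower value of chromosome 21 still counts chr21:1-9820000 (9.82 Mb), which begins on its unassembled short arm and holds no centromere point. The move was smaller on chromosome 17, with 21.1% with and 17.5% without, and on chromosome 20, with 42.1% with and 38.4% without. At the high end, chromosome 4 had 91.1% with and 90.7% without, and chromosome 13 had 88.7% with and 86.1% without.

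The share at the floor followed the gene density of the chromosome. Chromosome 13 has 2.94 protein-coding genes per Mb, chromosome 18 has 3.46 and chromosome 4 has 4.03, against 14.4 on chromosome 17 and 24.6 on chromosome 19. Gene numbers are from RefSeq on GRCh38 and lengths are the hg19 spans of the windows. Across the 22 chromosomes Spearman's rho between genes per Mb and the share at the floor was -0.93 and Pearson's r was -0.88, given as a description over points that share the same libraries. Without chromosomes 17 and 19, which lie farthest out, the values were -0.91 and -0.90. With centromere domains left out of both lengths, rho was -0.86, with chr21:1-9820000 still counted. The span of the chromosome followed the share less closely, with a rho of 0.39.

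**Figure D3:**
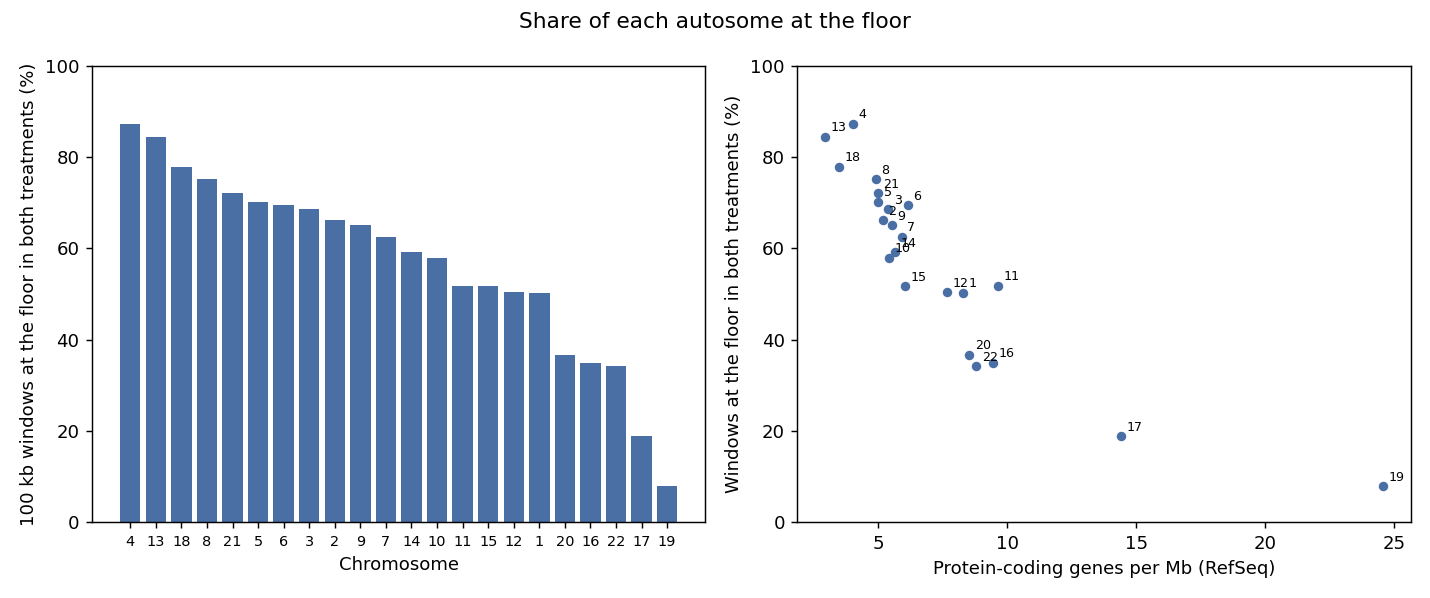
Left, percent of 100 kb windows at the floor in both treatments for each autosome, in falling order; right, the same percent against protein-coding genes per Mb, 1 point per chromosome. Chromosome 4 stands highest at 87.3% and chromosome 19 lowest at 7.93%.

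On every autosome the shares of the treatments lay within 1.95 percentage points of each other. The share of windows at the floor was 63.2% with PT2399 and 63.6% with DMSO over all autosomes, and 9 of the 22 chromosomes had the higher share with PT2399. The widest gap was on chromosome 10, with 61.3% for PT2399 and 63.2% for DMSO. On chromosome 18 the values were 79.8% with PT2399 and 81.5% with DMSO, and on chromosome 19 they were 9.36% with PT2399 and 8.32% with DMSO. Whether such gaps exceed the spread between libraries was not tested, since there is 1 value per treatment.

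The longest domains of the other chromosomes are given with known map landmarks as background. On chromosome 21 it was chr21:9830001-30370000 (20.54 Mb), which runs from the centromere region through NCAM2, a neural cell adhesion gene, and APP, the amyloid precursor gene, with 1 window off the floor. On chromosome 9 it was the domain of the centromere and its heterochromatin at chr9:47320001-65740000 (18.42 Mb), and the longest without a centromere was chr9:19400001-32980000 (13.58 Mb), which holds the type I interferon cluster, silent in most cells until viral infection. On chromosome 10, chr10:51920001-69850000 (17.93 Mb) holds PCDH15, a protocadherin of the inner ear, and CTNNA3, an α-catenin. On chromosome 12, chr12:77200001-93280000 (16.08 Mb) holds SYT1, a synaptic vesicle protein gene, and KITLG, the ligand of the KIT receptor.

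Further domains are given with gene clusters or single genes known to lie there, as background for which no overlap was tested. On chromosome 5, chr5:17120001-31860000 (14.74 Mb) holds the cadherin genes CDH18, CDH12, CDH10, CDH9 and CDH6, and 5 windows in it were off the floor. On chromosome 11, chr11:48150001-56950000 (8.80 Mb) spans the centromere and the large olfactory receptor clusters on either side of it. On chromosome 18, chr18:21730001-33750000 (12.02 Mb) holds CDH2, the neural cadherin gene, and the desmosomal cadherins. On chromosome 19 the longest domain was that of the centromere, chr19:24380001-28230000 (3.85 Mb). The longest one without it, chr19:22050001-22930000, was only 0.88 Mb long and lies in a cluster of KRAB zinc finger genes. The longest domain of chromosome 5 was chr5:96300001-112410000 (16.11 Mb). On chromosome 7, chr7:77310001-92270000 (14.96 Mb) holds SEMA3A, an axon guidance gene, and CD36, a fatty acid receptor gene.

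Among the remaining chromosomes, the longest domain was chr14:1-19910000 (19.91 Mb) on chromosome 14, chr22:1-17550000 (17.55 Mb) on chromosome 22 and chr16:33230001-46640000 (13.41 Mb) on chromosome 16, each holding a centromere. On chromosome 17 it was chr17:49460001-54700000 (5.24 Mb), where CA10, a brain carbonic anhydrase relative, lies. On chromosome 20 it was chr20:13370001-17480000 (4.11 Mb), where MACROD2 lies, a large gene at a common fragile site. A domain on chromosome 8 at chr8:103930001-123640000 (19.71 Mb), not chosen by length alone, had 0 windows off the floor among 1766, and holds CSMD3, a very large gene for a neural membrane protein.

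The floor grew more common with distance from the chromosome end. For chromosomes 13, 14, 15, 21 and 22 the long-arm end alone was used. In the outer 1 Mb 14.1% of windows were floor windows, between 2 and 5 Mb 26.8%, between 10 and 20 Mb 49.4%, between 30 and 40 Mb 59.5% and beyond 60 Mb 76.1%. The share in the outer 5 Mb was below that at 20 Mb or more on 21 of the 22 autosomes. Chromosome 15 was the exception, with 60.6% in its outer 5 Mb and 52.4% farther in. On chromosomes 16, 17, 19, 21 and 22, 0% of the windows in the outer 5 Mb were at the floor. The distant classes hold only the longer chromosomes, 15 of them beyond 60 Mb, and also the centromeres.

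**Figure D4:**
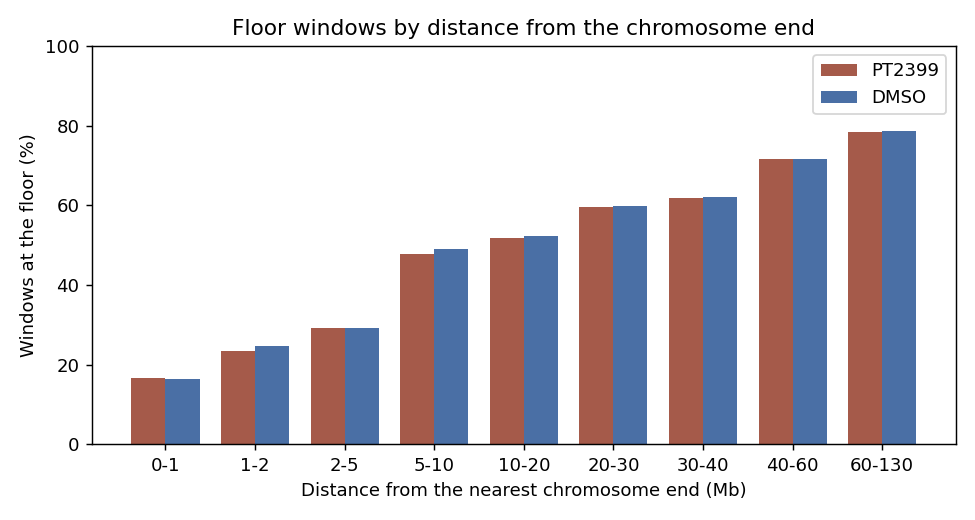
Percent of 100 kb windows at the floor by distance in Mb from the nearest chromosome end, for PT2399 and DMSO. Windows in the outer 1 Mb stand at 16.7% for PT2399 and 16.3% for DMSO, and those beyond 60 Mb at 78.3% for PT2399 and 78.6% for DMSO.

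The longest stretch outside every domain is given for the 3 chromosomes with the highest share at the floor and the 3 with the lowest. On chromosome 4 the longest stretch outside every domain was chr4:1-9000000 (9.0 Mb) at its short-arm end, on chromosome 13 chr13:112500001-115080000 (2.58 Mb) at its long-arm end, and on chromosome 18 chr18:19530001-21730000 (2.20 Mb). On chromosome 19 it was chr19:32440001-59080000 (26.64 Mb), the longest of any autosome, with a median of 10.00 with PT2399 and 10.17 with DMSO. On chromosome 17 it was chr17:25570001-49460000 (23.89 Mb), and on chromosome 22 chr22:34650001-51280000 (16.63 Mb). The last reached the end of the chromosome, as did those on chromosomes 4, 13 and 19.

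Windows shifted by less than 100 kb past a domain's edge are not floor windows by construction. A rise over that distance therefore follows from the choice, and the values are given as a description. For the 320 domains of at least 1 Mb, windows were followed outward from the last floor window on each side. Shifted by 10 kb, windows had a median of 2.17 with PT2399 and 0.90 with DMSO, and 85.6% of them were still at the floor in 1 treatment. Shifted by 50 kb, the medians were 5.28 with PT2399 and 5.22 with DMSO, and 58.8% reached at least 2 in both. At 100 kb the medians were 5.34 with PT2399 and 5.47 with DMSO. By 200 kb 28.8% of windows were in a further floor domain. Farther out the medians fell again, and at 1000 kb they stood at -0.11 with PT2399 and -0.07 with DMSO, with 47.5% of windows at the floor in both.

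**Figure D5:**
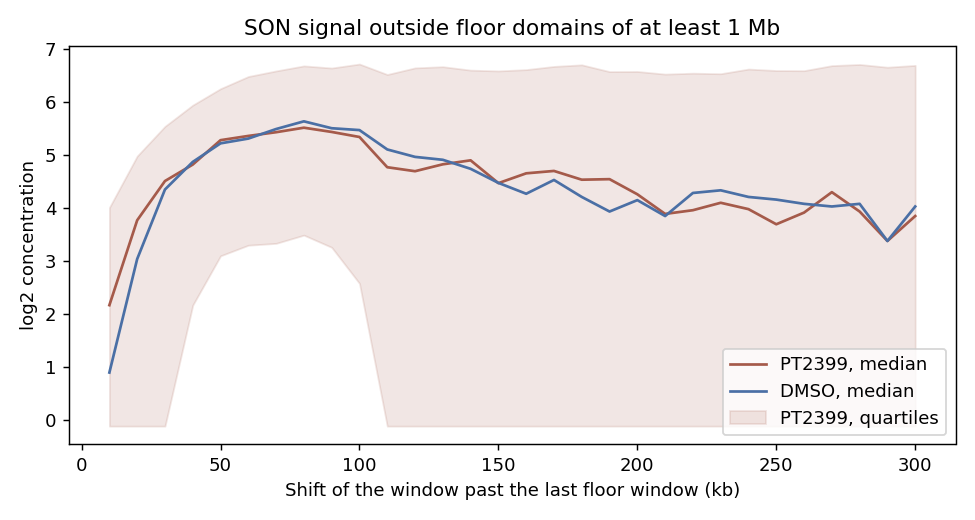
Median log2 concentration of windows by their shift in kb past the last floor window of domains of at least 1 Mb, for PT2399 and DMSO, with quartiles for PT2399. The PT2399 median is 2.17 at 10 kb and 5.28 at 50 kb, against 0.90 and 5.22 for DMSO; shifts below 100 kb hold no floor window by construction.

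Short and long domains were set side by side by their surroundings, with no test. Within 500 kb of domains under 0.2 Mb a median of 26.4% of windows were floor windows, against 30.2% around domains of 5 Mb or more. The median of the surrounding windows was 4.61 with PT2399 and 4.38 with DMSO for the short domains, and 4.01 with PT2399 and 4.25 with DMSO for the long ones. These medians take in the floor windows among the surroundings.

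Off-floor windows were split by whether they overlapped a floor domain. Those that do share bases with windows chosen for low signal, and 4805 of them were at the floor with PT2399 alone and 5669 with DMSO alone, so their lower level follows from the choice. Among off-floor windows, 19042 overlapped a domain, with a median of 4.09 with PT2399 and 3.91 with DMSO, and 82334 lay apart from every domain, with a median of 8.68 with PT2399 and 8.80 with DMSO. At an FDR of at most 0.01 in the authors' deposited tables, 0.599% of the overlapping windows were lower with PT2399 and 0.651% higher. Among those apart 1.92% were lower and 0.313% higher, beside 1.67% lower and 0.377% higher among all off-floor windows. The shares of all autosomal windows, 0.653% and 0.147%, take in the floor windows, of which 0 were called. With at least 2 in both treatments there were 7798 overlapping windows, of which 15 were lower (0.192%) and 6 higher (0.0769%) in those tables. Of the 79253 such windows apart from every domain, 1387 were lower (1.75%) and 71 higher (0.0896%) in the authors' deposited tables. Of the 1402 autosomal windows on the authors' list of windows lower with PT2399, 15 (1.07%) overlapped a floor domain, against 8.96% of all windows with at least 2 in both treatments. The 15 equal in number the lower windows with at least 2 in both treatments given above, so the list is not taken as a separate comparison. Signal was not matched between these classes, and its part in the shares was not tested. Most windows at the floor in 1 treatment touched a domain: 78.8% of those at it with PT2399 alone and 81.0% of those at it with DMSO alone.

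Members of gene families that lie in clusters or in gene-poor regions were counted in the authors' list of genes at lower windows, beside the share of all genes. Of 19126 autosomal protein-coding genes in RefSeq, 856 (4.48%) were in the deposited 100 kb list. Of 391 olfactory receptor genes, which detect odours and lie mostly in arrays, 4 (1.02%) were in it, and 171 of the 391 lie on chromosome 11. Of 86 cadherins and protocadherins, 0 were listed, and likewise 0 of 94 keratin-associated protein genes of hair, 0 of 39 beta defensins, which are antimicrobial peptides, 0 of 31 taste and vomeronasal receptors and 0 of 17 type I interferons. Of 30 large genes, chosen mainly for neural adhesion and among them LRP1B, ROBO1, ROBO2, GPC5 and CTNNA3, 0 were listed. The 30 also take in FHIT, WWOX and MACROD2, which are not adhesion genes. Wilson 95% intervals treat genes as independent, which members of a cluster are not. They reach 2.60% for the olfactory receptors, 4.28% for the cadherins and protocadherins and 3.93% for the keratin-associated proteins. For the beta defensins they reach 8.97%, for the interferons 18.4% and for the 30 large genes 11.4%. These 3 upper limits lie above the 4.48% of all genes, as does that of the taste and vomeronasal receptors, so these intervals hold it. The upper limits of the olfactory receptors, the cadherins and protocadherins and the keratin-associated proteins lie below it. No family is read as below the share of all genes from these intervals. Genes in floor windows could not enter that list, which holds only windows with signal, and members of a cluster share a place, so these counts describe the list and test nothing.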

How the data were processed

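SON TSA-seq was compared between PT2399 and DMSO in 786-O cells. Per the submitters' processing notes, hg19, Bowtie2, Picard, bedtools and DiffBind were used, without versions or settings. The use of inputs and the scaling of libraries are not stated there. The deposited tables hold, per the file headers, log2 concentrations for each treatment and a log2 fold. The deposited tables also hold a p-value with its FDR per window. The deposited fold is control minus treatment, and its sign was turned. Depth per library is unknown.

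Floor windows have both log2 concentrations below 0. Windows that overlap by at least 1 bp were merged. The merging code was run on simulated stretches, where 54 of 54 were recovered within 20 kb. These stretches lay wide apart and held no stray off-floor windows. The run therefore checks the code and not the short gaps and bridged windows of the data. No own test was made, since members were chosen on these values. Members, lists and comparisons were chosen with earlier results of these data known. A point in each centromere gap was entered by hand in whole Mb from general knowledge. Named regions are the 10 longest domains, the longest per chromosome (chromosome 8 and centromere-free ones added after seeing values) and the longest off-floor stretch of 3 chromosomes at either end. Named genes are textbook landmarks. RefSeq (GRCh38) gave names, chromosomes and gene numbers, and 982 of 1023 listed genes matched. Python 3.11.15, numpy 2.4.6 and pandas 2.3.3 were used.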

Additional observations from a re-analysis of the deposited data

How the results depend on the processing

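With 50 kb windows the number of domains was 2351 against 1067, more than 1.5 times as many. Their length was 1863.55 Mb and 94 reached 5 Mb. Whether the added domains are parts of the 100 kb domains or new stretches was not tested. All other values stayed within 1.5 times of the reported ones, over the alternatives run for each. For the count of windows these were thresholds of 0.5, 1 and 2 and either treatment alone. For the length, the core, 50 kb windows and, chosen after seeing the data, leaving out domains with a centromere or at the first window were added. The counts of domains and of domains of at least 5 Mb had these and also touching windows and an overlap of 50 kb, and each set alone was run for the count of domains only. Each set alone gave between 1003 and 1063 domains. The core alone gave 1609.92 Mb and 89 long pieces. The count of floor windows called in the authors' deposited tables was 0 at an FDR of 0.01 and at 0.1. All floor windows share 1 combination of values, so these counts follow from the rule and nothing is read from them. Of the 159123 windows with both treatments below 2, which are not all floor windows, 0 were called at an FDR of 0.01. No paired analysis was possible because the tables give 1 value per treatment and none per replicate. A 100 kb window at the floor may hold signal over part of its length, since 1 island of 50 kb windows inside the core peaked at 6.45 with PT2399 and 5.68 with DMSO. Gaps, lost DNA and mapped chromatin at the floor cannot be told apart here, and copy number in 786-O was not tested.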

Other observations

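A narrow peak stood between floor domains near the start of the assembled part of chromosome 21. The domain at chr21:1-9820000 (9.82 Mb) ended and the next, at chr21:9830001-30370000, began around it. All 9 windows of 100 kb that held the bases between them were off the floor, with values from 9.03 to 10.3 with PT2399 and from 7.76 to 10.01 with DMSO. Of the 50 kb windows, 9 were off the floor, from 9.63 to 10.32 with PT2399 and from 9.02 to 10.04 with DMSO, and these shared only the 5 kb at chr21:9825001-9830000, while the windows on either side were at the floor. The highest value in both treatments belonged to the window that ends at 9830000, and the lowest to the last window that still held these bases. The value thus fell while the windows kept these bases and gained bases whose own windows were at the floor. Plain counts of reads in a window would not fall so. The reason was not tested.

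Chromosome X, which the rule leaves out, had 9526 of 13959 windows at the floor in both treatments (68.2%). They formed 83 domains, of which the longest, at chrX:77370001-100220000, measured 22.85 Mb.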
